A study of Mus musculus with 20 samples.

Results

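The genes described here encode the acute phase and complement proteins of the liver: 35 genes chosen by name, of 21900 protein-coding mouse genes in the annotation. They were the serum amyloids and pentraxins (Saa1, Saa2, Saa4, Apcs, Crp), the carrier and clotting proteins of the acute phase (Orm1, Orm2, Hp, Hpx, Fga, Fgb, Fgg, Lcn2, Lbp, Itih3, Itih4), the complement components and lectin pathway proteins (C3, C4b, Hc, C6, C8a, C8b, C9, Cfb, Cfi, Masp1, Masp2, Mbl1, Mbl2), the serpins Serpina3n, Serpina3k and Serping1, and the signalling genes Stat3, Socs3 and Il6ra. A stretch of chromatin counted for a gene when its midpoint lay in the gene body or within 10 kb of it. All 35 genes had at least 1 such stretch for both H3K27ac, a mark of active promoters and enhancers, and H3K4me1, a mark found at enhancers whether active or not.

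The acute phase response is the change in the set of plasma proteins that hepatocytes secrete after infection or injury. Interleukin-6 acts through its receptor and the transcription factor STAT3, with C/EBP factors and NF-kB, to raise serum amyloid A, fibrinogen, haptoglobin and other proteins, and SOCS3 limits that signal. The liver also makes most circulating complement: the mannose-binding lectins and their proteases start the lectin pathway, C3 is the point where the pathways meet, and the terminal components build the pore that punctures membranes.

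Chromatin was taken from flash-frozen livers of 9-week-old male C57BL/6 mice after a 24 h fast. The 4 genotypes were wild type (WT), Cpt2 L-/- (loss of Cpt2 in the liver, which mitochondria need to oxidise long-chain fatty acids), Ppara -/- (loss of the nuclear receptor that switches on fatty acid oxidation genes in fasting, with no tissue named in the labels) and the double knockout Cpt2 L-/- ; Ppara -/- (DKO in the figures). The promoter that drives the recombinase for Cpt2 is not given in the sources used here. H3K27ac and H3K4me1 were each measured in 2 livers of every genotype, and the same 8 livers served both marks by the animal numbers in the peak names. H3K9ac was measured in 1 WT and 1 Cpt2 L-/- liver. The WT and Cpt2 L-/- livers carry animal numbers of one series and the Ppara -/- and double-knockout livers of another, so loss of Ppara and the series of animals cannot be told apart.

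The values are MACS2 fold enrichments of called peaks, and read depth is unknown. The H3K27ac libraries held 44454 to 48929 peaks over 42.0 to 47.8 Mb and the H3K4me1 libraries 61189 to 72151 peaks over 38.8 to 53.5 Mb. The Ppara gene itself checked the labels: its H3K27ac level was lower by 0.56 ± 0.11 (SE, log2) in the 4 Ppara-null livers (limma adjusted p = 0.0202), though this call was not made without centring. Of its 26 H3K27ac intervals, 1 was called in all 4 Ppara-intact livers only and 1 in all 4 Ppara-null livers only. At Cpt2, 1 of 5 intervals was called in all 4 livers with Cpt2 only, and the gene's level did not pass (-0.26 ± 0.12, adjusted p = 0.171), so the marks are a weak check of the Cpt2 label. The hepatocyte markers Alb, Apoa1, Ttr, Cps1 and Asgr1 had H3K27ac peaks in all 8 libraries, and 5 of 5 were called in each. In whole liver, fewer cells of a type and less mark per cell cannot be told apart.

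Promoters of 6 members are shown because the results below turn on these genes. They are the Saa pair, whose mark was concentrated in WT livers, and 4 genes called on the centred scale over intervals within 10 kb. Of these, Orm2 and C6 were called higher in H3K27ac without Ppara, and Fgg and Mbl2 lower without Cpt2. The Orm2 call came from intervals away from the promoter shown. Each is the 250 bases before the RefSeq start, 5′ to 3′ on the coding strand, with RefSeq sequence and GRCm38.p6 coordinates. Capitals mark matches to a searched motif.
Saa1, chr7:46742981-46743230, minus strand: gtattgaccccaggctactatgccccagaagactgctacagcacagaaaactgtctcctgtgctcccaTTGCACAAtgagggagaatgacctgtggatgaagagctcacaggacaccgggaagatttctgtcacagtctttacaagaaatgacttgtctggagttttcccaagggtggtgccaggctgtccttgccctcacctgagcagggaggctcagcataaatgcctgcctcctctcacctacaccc
Saa2, chr7:46751583-46751832, plus strand: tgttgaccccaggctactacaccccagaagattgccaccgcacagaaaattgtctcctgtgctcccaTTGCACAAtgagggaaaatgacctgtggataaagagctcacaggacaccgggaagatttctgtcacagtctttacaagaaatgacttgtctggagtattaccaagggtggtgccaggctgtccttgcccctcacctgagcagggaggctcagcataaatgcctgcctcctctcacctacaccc
Orm2, chr4:63362199-63362448, plus strand: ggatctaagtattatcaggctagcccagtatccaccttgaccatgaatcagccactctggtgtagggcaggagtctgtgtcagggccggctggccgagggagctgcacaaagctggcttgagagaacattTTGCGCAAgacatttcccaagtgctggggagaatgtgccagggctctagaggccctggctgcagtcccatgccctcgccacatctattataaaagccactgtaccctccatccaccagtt
C6, chr15:4726960-4727209, plus strand: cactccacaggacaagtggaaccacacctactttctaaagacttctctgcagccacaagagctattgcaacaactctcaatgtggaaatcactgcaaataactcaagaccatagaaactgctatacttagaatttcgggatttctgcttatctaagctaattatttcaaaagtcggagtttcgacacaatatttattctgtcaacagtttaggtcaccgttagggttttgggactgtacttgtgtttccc
Fgg, chr3:83007474-83007723, plus strand: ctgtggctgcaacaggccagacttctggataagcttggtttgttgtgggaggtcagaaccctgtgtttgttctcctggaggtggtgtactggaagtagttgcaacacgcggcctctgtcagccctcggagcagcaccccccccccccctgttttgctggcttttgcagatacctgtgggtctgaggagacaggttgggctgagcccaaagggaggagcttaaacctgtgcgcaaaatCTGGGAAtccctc
Mbl2, chr19:30232678-30232927, plus strand: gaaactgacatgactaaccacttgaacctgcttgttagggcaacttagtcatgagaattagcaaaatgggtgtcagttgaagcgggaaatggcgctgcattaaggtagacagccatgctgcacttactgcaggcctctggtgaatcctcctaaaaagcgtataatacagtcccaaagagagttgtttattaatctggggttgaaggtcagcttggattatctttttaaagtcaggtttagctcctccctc

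The capitals in Saa1, Saa2 and Orm2 are C/EBP-type letters (TTNNGCAA), starting 182, 183 and 120 bases before the start. In Saa1 and Saa2 the match is on the other strand, so the letters shown are its reverse complement. Those in Fgg are an interleukin-6 response element of type II (CTGGGAA), 13 bases before the start. H3K27ac intervals covered the starts of C6, Fgg and Mbl2 in all 8 libraries, that of Saa1 in 1, and those of Saa2 and Orm2 in 0. The C6 and Mbl2 windows held none of the 5 motifs searched on both strands. Of the 26 members with a promoter entry, 10 held TTNNGCAA, against 9.56% of 32851 mouse promoters of the same length. The STAT motif TTCNNNGAA stood in 7 of the 26 (7.02% of all promoters), in Apcs, Fga, Fgb, C8a, Masp2, Socs3 and Itih4. CTGGGAA stood in 4 (9.1%), in Apcs, Fgg, Fgb and Masp2, so Fgb, the fibrinogen beta chain, carried all 3 of these motifs. The NF-kB motif stood in 1 (1.41%), Serpina3n, and the nuclear receptor direct repeat DR1 in none (0.338%). Matches of different motifs overlapped in 1 member, Masp2. Such a match is a run of letters and no evidence of binding. Saa1 and Saa2 are related copies (197 of 249 promoter bases, 79.1%, are the same when aligned without gaps), and reads may be split between them.

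Across the 8 libraries the 35 genes had 270 H3K27ac intervals, stretches of chromatin made by merging the peaks of all libraries, with 2 to 17 intervals per gene. Of these, 69 were called in every library (25.6%, against 27.8% of all 65776 intervals). These 69 gave 31 genes a level in all 8 livers: the log2 fold, centred on each library's median and averaged over the gene's intervals. Saa1, Saa2, Saa4 and Lcn2 had none and stayed outside this fit. Of the 69 intervals, 14 lay nearest to a gene outside the 35. An alternative fit takes intervals called in at least 4 libraries, puts the lowest fold of the library where no peak was called, and so covers all 35 genes; its values depend on what was put in. A difference below is a contrast of such levels over 4 livers against 4, from a limma fit on all 11264 genes, with Benjamini-Hochberg adjusted p called under 0.05. An interval that disappears in some livers is outside this fit, so the fit covers only chromatin that kept a peak everywhere.

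**Figure D1:**
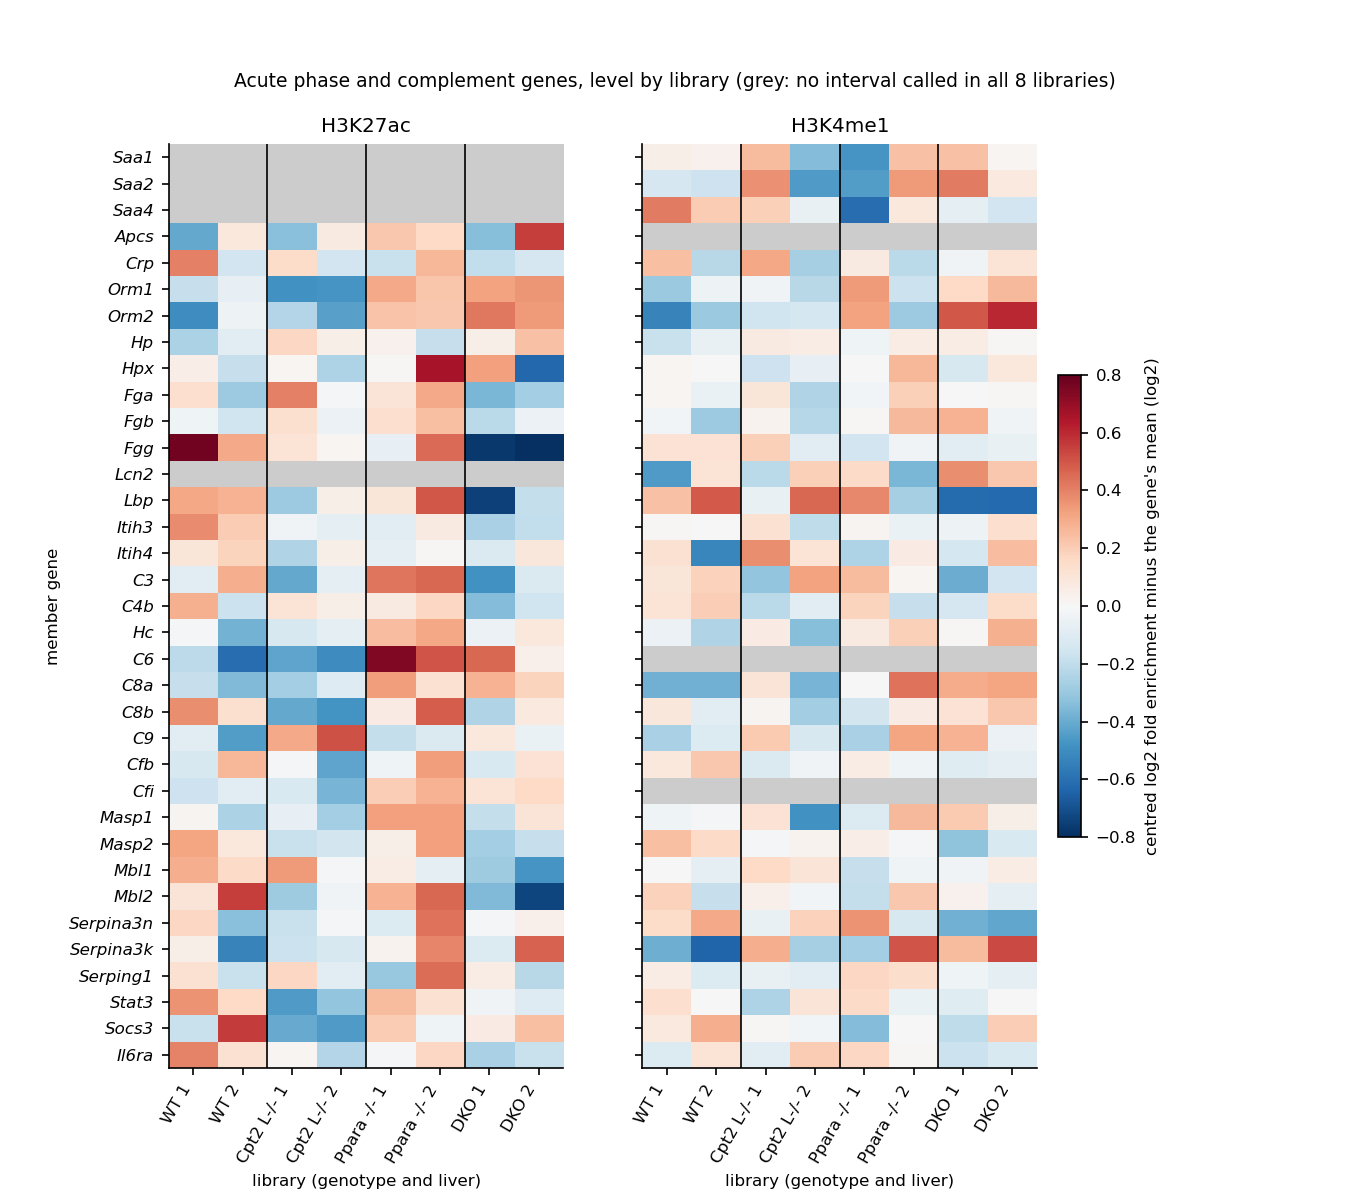
H3K27ac and H3K4me1 level of each of the 35 genes in the 8 livers (columns, by genotype), as log2 fold minus the gene's own mean over the livers. Grey marks genes with no interval called in all 8 libraries (4 for H3K27ac and 3 for H3K4me1). C6, Orm1, Orm2 and C8a are higher in the 4 Ppara-null columns of H3K27ac, and Fgg and Mbl2 are lowest in the double-knockout columns.

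At the serum amyloid A cluster H3K27ac was called mostly in WT livers. Saa1 and Saa2 encode the major acute phase apolipoproteins and Saa4 a constitutive relative. Of the 19 H3K27ac intervals at these 3 genes, the WT livers had 19 and 8, the Cpt2 L-/- livers 4 and 2, the Ppara -/- livers 1 and 5, and the double-knockout livers 0 and 1. No knockout liver had more intervals than either WT liver.

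The interval over the Saa4 start (chr7:46730356-46733602, mm10) had a fold of 26.2 in WT liver 1 and 15.5 in WT liver 2, 4.50 and 5.17 with Cpt2 L-/-, 4.88 and 11 in Ppara -/-, and no peak and 6.67 in the double knockout. Between Saa4 and Saa1 (chr7:46737934-46738841) the folds were 26.8 and 17.3 in WT, 7.17 and 5.64 in Cpt2 L-/-, and 5.67 in the second Ppara -/- liver, with no peak in the other 3. WT folds lay above every knockout fold at both intervals. The Saa1 start itself had a peak in WT liver 1 only, with a fold of 3.43, and the Saa2 start had none in any liver.

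WT liver 1 stood apart here. Of the 14 intervals called in no knockout, 10 were its own and 4 were shared with WT liver 2, and none was in WT liver 2 alone. Without WT liver 1, the count in WT was 8 intervals in 1 liver against 0 to 5 in the 6 knockout livers. The counts of intervals were not tested.

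With uncalled livers filled in at the lowest fold of their library, loss of Cpt2 lowered Saa4 by 1.35 ± 0.29 (limma adjusted p = 0.0145, 3 intervals) and Saa1 by 1.29 ± 0.30 (adjusted p = 0.0192, 4 intervals). Saa2, with 1 interval, had -1.09 ± 0.37 (adjusted p = 0.0672). Loss of Ppara lowered Saa4 by 1.16 ± 0.29 (adjusted p = 0.0328), and Saa1 had -1.04 ± 0.30 (adjusted p = 0.0587) and Saa2 -0.66 ± 0.37 (adjusted p = 0.303). Some of these intervals are shared between the genes. Livers without a peak take the value put in, so these differences restate in part the missing peaks given above. They are no separate support for those counts. In that fit 8.05% of 13088 genes were called lower for Cpt2 and 6.33% for Ppara. When WT liver 1 was also left out, Saa4 passed for Cpt2 (-1.10 ± 0.30, adjusted p = 0.0406), while Saa1 had -1.05 ± 0.32 (adjusted p = 0.0579) and Saa2 -0.88 ± 0.42 (adjusted p = 0.179). For Ppara none of the 3 then passed, and Saa4 had -0.91 ± 0.30 (adjusted p = 0.0905).

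The same cluster was more evenly marked by H3K4me1: of 16 intervals, 15 and 14 were called in WT, 7 and 10 in Cpt2 L-/-, 8 and 5 in Ppara -/-, and 7 and 7 in the double knockout. At the Saa1 start (chr7:46742951-46744675) the H3K4me1 folds were 7.86 and 7.14 in WT, 6.64 and 5.67 in Cpt2 L-/- and 7.24 in Ppara -/- liver 1, with no peak in the other 3 livers. A few kilobases on (chr7:46745750-46746562) the order was mixed, from 4.47 to 12.1 across all 8 livers.

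**Figure D2:**
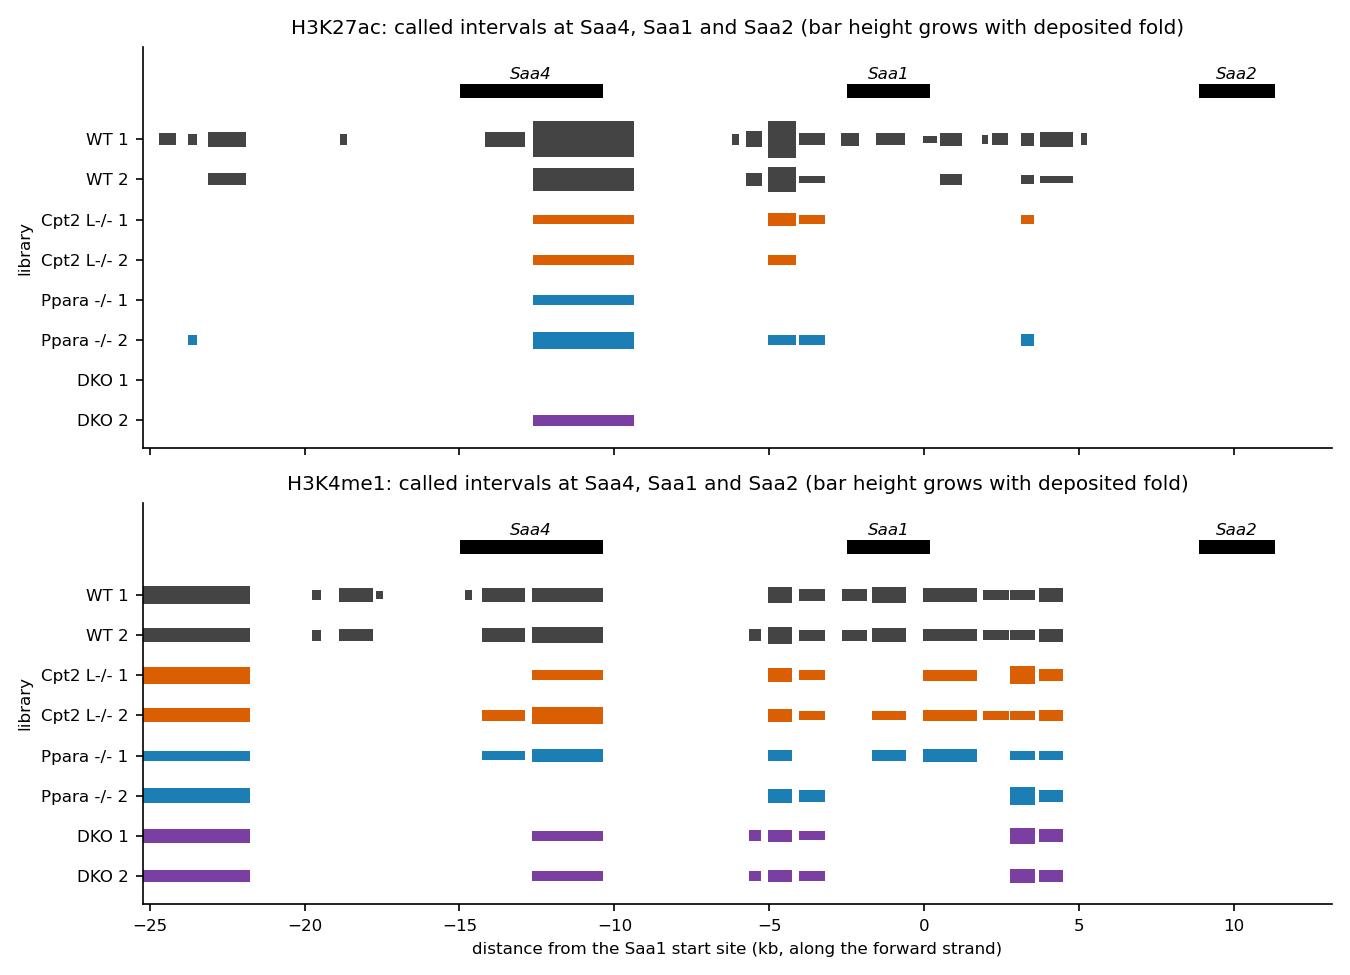
H3K27ac (upper) and H3K4me1 (lower) intervals over the serum amyloid A cluster in the 8 livers, with distance in kb from the Saa1 start along the forward strand; the leftmost H3K4me1 interval runs past the edge of the axis. Each bar is a called interval and its height grows with the fold. The H3K27ac bars thin out from 19 and 8 in the WT livers to 0 and 1 in the double knockout, while H3K4me1 bars remain in every liver.

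Over the intervals called in every library, loss of Ppara raised H3K27ac at 4 of the 31 testable genes and lowered it at none: C6, Orm1, Orm2 and C8a. Other ways of counting the intervals of a gene called Mbl1, Fgg or Saa4 lower, as given below. Over all genes the fit called 141 of 11264 higher (1.25%) and 410 lower (3.64%). The members' median difference was 0.124, against -0.043 over all genes. In 5 members all 4 Ppara-null livers were above all 4 others (Cfi, Orm1, Orm2, C8a and C6, background 2.58%), and in 0 they were all below (background 4.95%).

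C6, a terminal complement component, had the largest difference. Folds at the interval over its start (chr15:4727109-4729947) were 7.83 and 6.86 in WT, 8.87 and 7.65 in Cpt2 L-/-, 15.3 and 14.4 in Ppara -/-, and 15.4 and 13.2 in the double knockout. The 4 livers without Ppara were all above the 4 with it. The centred level rose by 0.87 ± 0.15 (SE, log2; limma adjusted p = 0.00843). This call held when any 1 of the 8 livers was left out. A second interval upstream of the start (chr15:4717760-4719113) had 11.5, 9.80, 11.4 and 9.00 in the 4 Ppara-null livers, 5.25 in WT liver 1 and no peak in the other 3, so it stayed outside the fit.

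Orm1 and Orm2 encode orosomucoid (alpha-1-acid glycoprotein), an acute phase carrier of basic compounds. The Orm1 levels were 0.30 and 0.41 in WT, -0.003 and 0.008 in Cpt2 L-/-, 0.78 and 0.70 in Ppara -/-, and 0.81 and 0.83 in the double knockout, and the difference was 0.60 ± 0.11 (adjusted p = 0.0124). The Orm2 levels were -0.55 and -0.10 in WT, -0.29 and -0.49 in Cpt2 L-/-, 0.17 and 0.16 in Ppara -/-, and 0.37 and 0.28 in the double knockout, with a difference of 0.60 ± 0.14 (adjusted p = 0.0289). For both genes every Ppara-null liver was above every other liver. The strongest single interval was upstream of Orm2 (chr4:63358736-63360512), with 5.17 and 7.79 in the WT livers, 4.90 and 5.18 with Cpt2 L-/-, 9.64 and 9.16 in Ppara -/-, and 12.8 and 13.9 in the double knockout (0.96 ± 0.19, adjusted p = 0.00869). That interval lies nearer the third orosomucoid gene, Orm3, as does another that Orm1 and Orm2 share, and Orm3 itself rose by 0.60 ± 0.12 (adjusted p = 0.0212). When an interval counted for its nearest gene only, Orm2 had 0.23 (adjusted p = 0.510).

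C8a, a chain of the complement pore, had levels of 0.54 and 0.37 in WT, 0.45 and 0.62 in Cpt2 L-/-, 1.06 and 0.85 in Ppara -/-, and 1.00 and 0.90 in the double knockout, and rose by 0.46 ± 0.12 (adjusted p = 0.0449). Its partner C8b had 0.19 ± 0.15 (adjusted p = 0.5). Hc, the mouse gene of complement C5, had 0.30 ± 0.12 (adjusted p = 0.188) over the intervals in the fit. An interval outside the fit, upstream of the RefSeq start listed for Hc, which lies within the annotated gene (chr2:35069089-35070718), had folds of 13.1, 15.4, 13.2 and 18.3 in the Ppara-null livers, 3.67 in WT liver 1, none in WT liver 2, and 5.63 and 5.13 in Cpt2 L-/-. With the lowest fold of the library put in where no peak was called, it rose by 1.86 ± 0.22 (adjusted p = 0.00202). Cfi, the protease that degrades C3b, had 0.38 ± 0.12 (adjusted p = 0.0987).

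Some fibrinogen and lectin chromatin had values in the other direction. Fgg, the fibrinogen gamma chain, had a Ppara difference of -0.60 ± 0.16 (adjusted p = 0.0509) and Mbl1, a mannose-binding lectin, -0.38 ± 0.13 (adjusted p = 0.113). Of 69 member intervals, 4 rose (background 3.19%) and 2 fell (background 4.15%) with loss of Ppara. The 2 that fell were the one over the Mbl1 start (chr14:41150323-41155299), with 19.3 and 20 in the WT livers, 16.8 and 13 with Cpt2 L-/-, 11.8 and 13.4 in Ppara -/- and 9.54 and 10.6 in the double knockout (-0.63 ± 0.15, adjusted p = 0.0262), and one within Itih3 (chr14:30920913-30922536), with 12.2 and 16.0, 12.9 and 10.7, 6.90 and 8.11, and 8.25 and 7.80 in the same order (-0.75 ± 0.17, adjusted p = 0.0199). The 4 that rose were the C6 start, the interval upstream of Orm2, the one shared by Orm1 and Orm2 (0.62 ± 0.17, adjusted p = 0.0397) and the one over Orm1 (0.58 ± 0.16, adjusted p = 0.0434). Itih3 encodes a heavy chain that binds hyaluronan.

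The genes called depended on how intervals were counted. Mbl1 was called lower when an interval counted for its nearest gene only (-0.65, adjusted p = 0.0281), within 2 kb (-0.65, adjusted p = 0.0311) or by its strongest interval (-0.63, adjusted p = 0.0301). Fgg was called lower with the smallest peak width of each library as a covariate (-0.72, adjusted p = 0.0360). C8a lost its call with nearest genes (adjusted p = 0.0524), within 2 kb (0.0555), by its strongest interval (0.0834) and with the width covariate (0.0892). Orm1 and Orm2 lost theirs by their strongest interval (adjusted p = 0.0565 and 0.0507), and Orm2 also within 2 kb (adjusted p = 0.516). With uncalled livers filled in, 4 were higher (C6, Orm1, Orm2 and C8a, background 4.89%) and 1 lower (Saa4). With WT liver 1 also left out, 3 were higher (C6, Orm2 and Hc, background 4.79%) and 0 lower (background 6.53%).

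Single livers mattered too, over all intervals as well as for the members. Calls for Ppara over all intervals fell when 1 liver was left out, except without WT liver 1, where they rose. The members called in each such fit follow. Called were 4 without either WT liver (with Fgg lower among them without WT liver 2), 3 without Ppara -/- liver 2 (Fgg lower among them), 2 without Cpt2 L-/- liver 1 or either double-knockout liver, and 1 without Cpt2 L-/- liver 2 or Ppara -/- liver 1. Without centring, 1 member was called (C6, 0.90, adjusted p = 0.00551), against 0.497% of all genes higher and 1.28% lower.

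**Figure D3:**
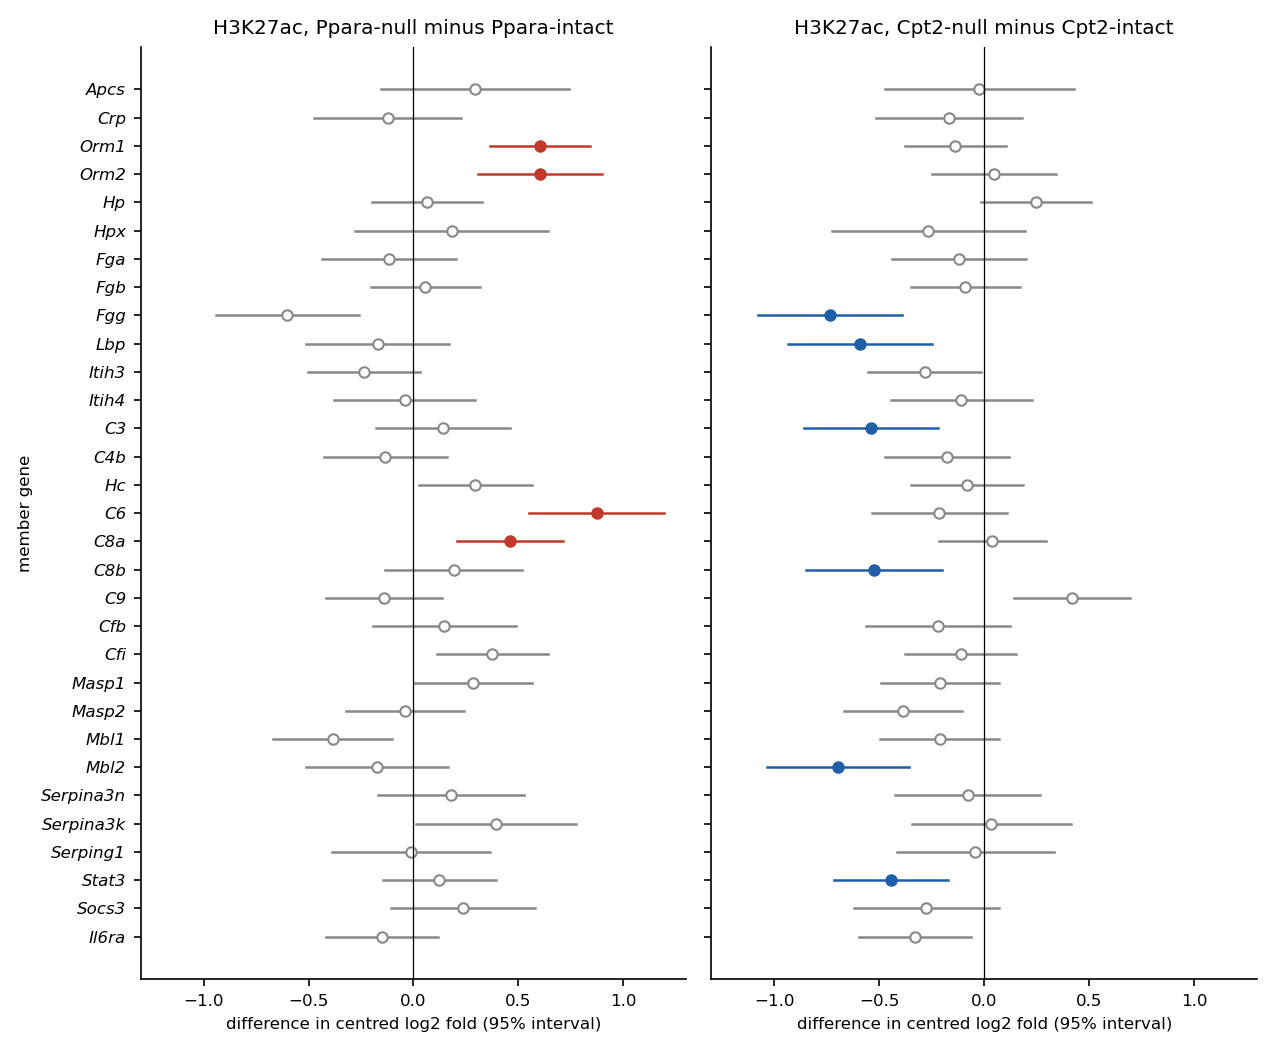
Differences in H3K27ac level (log2) with loss of Ppara (left) and of Cpt2 (right) for the 31 testable genes, each point with its 95% interval from limma. Filled points have an adjusted p under 0.05: 4 to the right of zero for Ppara and 6 to the left for Cpt2.

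**Figure D4:**
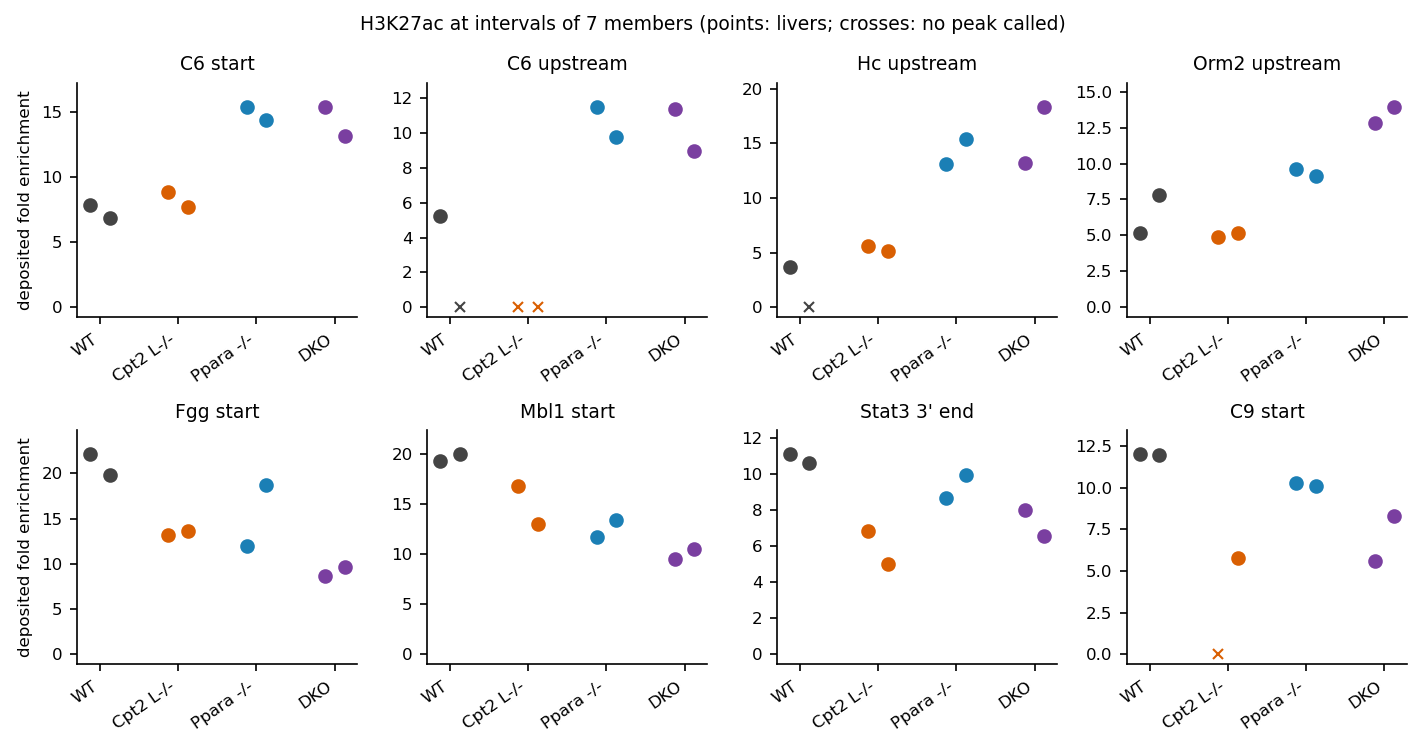
Deposited H3K27ac folds of 8 intervals by genotype, 1 point per liver, with a cross where no peak was called. C6, Hc and Orm2 intervals are high in both genotypes without Ppara, and the Fgg, Stat3 and C9 intervals are lower in the Cpt2 L-/- livers than in WT.

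On the centred scale, loss of Cpt2 lowered H3K27ac at 6 of the 31 testable genes and raised it at none: Fgg, Mbl2, Lbp, C3, C8b and Stat3. Over all genes 610 were lower (5.42%) and 468 higher (4.15%). The members' median difference was -0.177, against a median over all genes of 0.0, and 26 of the 31 differences were below zero. Without centring this turned: 20 were above zero and 11 below, with a median of 0.089 against 0.266 over all genes. All 4 Cpt2-null livers were below all others for Lbp, Masp2, Stat3 and Mbl2 (background 5.18%) and above them for Hp and C9 (background 7.87%).

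Fgg had levels of 0.54 and 0.08 in WT, -0.12 and -0.21 in Cpt2 L-/-, -0.29 and 0.23 in Ppara -/-, and -1.0 and -1.05 in the double knockout, and fell by 0.73 ± 0.16 (adjusted p = 0.0195). The interval over its start (chr3:83006592-83009868) had folds of 22.1 and 19.8, 13.2 and 13.6, 12 and 18.7, and 8.65 and 9.63 in that order (-0.95 ± 0.17, adjusted p = 0.00756). The double-knockout livers were the lowest of all for this gene. The other chains of fibrinogen did not pass: Fga had -0.12 ± 0.15 (adjusted p = 0.620) and Fgb -0.09 ± 0.12 (adjusted p = 0.660).

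Fga ranged from -0.38 to 0.39 and Fgb from -0.05 to 0.40 over the 8 livers, and for Fga the genotypes were interleaved. For Fga the levels were 0.12 and -0.30 in WT, 0.39 and -0.02 in Cpt2 L-/-, 0.09 and 0.29 in Ppara -/-, and -0.38 and -0.29 in the double knockout. For Fgb they were 0.13 and 0.01, 0.29 and 0.12, 0.30 and 0.40, and -0.05 and 0.12 in the same order, so the Ppara -/- livers were the highest. The difference between the chains was not tested.

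Mbl2, the second mannose-binding lectin, had levels of -0.22 and 0.24 in WT, -0.60 and -0.35 in Cpt2 L-/-, -0.04 and 0.14 in Ppara -/-, and -0.67 and -1.05 in the double knockout, and fell by 0.70 ± 0.15 (adjusted p = 0.0216). Every Cpt2-null liver was below every other. The interval over its start (chr19:30232410-30234266) had 6.13 and 17.9 in WT, 4.70 and 6.29 in Cpt2 L-/-, 6.53 and 8.44 in Ppara -/-, and 4.50 in both double-knockout livers (-1.10 ± 0.27, adjusted p = 0.0207), so WT liver 2 stood above the rest. The Mbl1 interval described above also fell without Cpt2 (-0.63 ± 0.15, adjusted p = 0.0212), while the Mbl1 gene level, with values of 0.33 and 0.19, 0.38 and 0.03, 0.10 and -0.04, and -0.24 and -0.43, had -0.21 ± 0.13 (adjusted p = 0.303). Masp2, a lectin pathway protease, had -0.39 ± 0.13 (adjusted p = 0.0767) and Masp1 -0.21 ± 0.13 (adjusted p = 0.303).

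Lbp, which carries bacterial lipopolysaccharide to its receptor, had levels of 0.76 and 0.73 in WT, 0.16 and 0.49 in Cpt2 L-/-, 0.55 and 0.95 in Ppara -/-, and -0.30 and 0.26 in the double knockout, and fell by 0.59 ± 0.16 (adjusted p = 0.0381). C3 had -0.01 and 0.37, -0.33 and 0.01, 0.51 and 0.54, and -0.41 and -0.04, and fell by 0.54 ± 0.15 (adjusted p = 0.0407). The C3 groups overlapped, with WT liver 1 among the Cpt2-null values and both Ppara -/- livers on top. C8b had -0.01 and -0.25, -0.80 and -0.86, -0.32 and 0.10, and -0.62 and -0.31, and fell by 0.53 ± 0.15 (adjusted p = 0.0470). C8b did not pass with quantile normalization (adjusted p = 0.0565), with nearest genes (0.0514), within 2 kb (0.0526) or by its strongest interval (0.303). Just inside C8b an interval outside the fit (chr4:104767963-104768631) had a fold of 9.42 and 11.3 in WT, none in Cpt2 L-/-, 10.1 and 11.6 in Ppara -/-, and 6.80 and 6.21 in the double knockout.

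Stat3, which carries the interleukin-6 signal into the nucleus, had levels of 0.13 and -0.07 in WT, -0.68 and -0.54 in Cpt2 L-/-, 0.03 and -0.11 in Ppara -/-, and -0.25 and -0.33 in the double knockout, and fell by 0.45 ± 0.12 (adjusted p = 0.0447). Stat3 did not pass with quantile normalization (adjusted p = 0.0565), with nearest genes (0.0512), within 2 kb (0.0521) or by its strongest interval (0.904). The interval called spans the 3′ end of the gene (chr11:100885407-100888326), with folds of 11.1 and 10.6, 6.82 and 5, 8.69 and 9.95, and 8.01 and 6.57 (-0.89 ± 0.19, adjusted p = 0.0138). Other Stat3 chromatin had the opposite order: 2 intervals, one of them just upstream of the start (chr11:100939752-100940357), had a peak in all 6 knockout livers and in neither WT liver. Il6ra, the interleukin-6 receptor, had 1.11 and 0.84 in WT, 0.73 and 0.48 in Cpt2 L-/-, 0.70 and 0.88 in Ppara -/-, and 0.45 and 0.54 in the double knockout (-0.33 ± 0.12, adjusted p = 0.101). Socs3, the feedback inhibitor, had 0.58 and 1.32, 0.35 and 0.31, 0.96 and 0.72, and 0.83 and 1.00 (-0.28 ± 0.16, adjusted p = 0.271).

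The remaining named acute phase genes did not pass either contrast. Hp, haptoglobin, had 0.15 and 0.31 in WT, 0.57 and 0.45 in Cpt2 L-/-, 0.44 and 0.22 in Ppara -/-, and 0.45 and 0.64 in the double knockout (Cpt2 difference 0.25 ± 0.12, adjusted p = 0.195). Cfb, the protease of the alternative pathway, had -0.26 and 0.14, -0.14 and -0.55, -0.16 and 0.21, and -0.25 and -0.01, with every genotype overlapping the others. Serpina3n, a protease inhibitor induced in the acute phase, had 0.18 and -0.32, -0.16 and 0.01, -0.09 and 0.45, and 0.01 and 0.06. Serpina3k, a kallikrein-binding inhibitor, had 0.16 and -0.43, -0.06 and -0.02, 0.14 and 0.50, and 0.002 and 0.58, and both serpins varied as much within a genotype as between. Apcs, Crp, Hpx, Itih3, Itih4, C4b and Serping1 had adjusted p from 0.150 to 0.955 for Cpt2 and from 0.299 to 0.979 for Ppara.

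C9, the pore-forming component, split between the fit and what lay outside it. The interval in the fit, which lies nearer another gene, had levels of 0.43 and 0.06 in WT, 0.81 and 1.02 in Cpt2 L-/-, 0.32 and 0.40 in Ppara -/-, and 0.59 and 0.46 in the double knockout (0.42 ± 0.13, adjusted p = 0.0575). The interval over the C9 start (chr15:6445233-6448095) reached 12 and 11.9 in WT, none and 5.77 in Cpt2 L-/-, 10.3 and 10.1 in Ppara -/-, and 5.59 and 8.29 in the double knockout. All 4 livers with Cpt2 were above the 3 others that had a peak at the start. Lcn2, the siderophore-binding lipocalin, had 8.03 and 6.05, 5.85 and 4.80, 7.19 and none, and 10.7 and 16.3 over its start (chr2:32387048-32389725), highest in the double knockout. With the uncalled liver filled in, Lcn2 did not pass for Ppara (0.27 ± 0.33, adjusted p = 0.655) or Cpt2 (0.36 ± 0.33, adjusted p = 0.465).

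At interval level 8 member intervals fell and 0 rose without Cpt2, against 7.38% and 4.9% of all intervals. Besides the Fgg, Stat3, Mbl1 and Mbl2 intervals they were one across the 3′ end of C3 (chr17:57202662-57205381, -0.69 ± 0.19, adjusted p = 0.0326), one over the Itih4 start (chr14:30885602-30888535, -0.78 ± 0.22, adjusted p = 0.0393), one overlapping Lbp (chr2:158303115-158308712, -0.59 ± 0.18, adjusted p = 0.0428) and one over the Itih3 start (chr14:30922627-30925376, -0.60 ± 0.18, adjusted p = 0.0487). At the Itih4 start the folds were 11 and 15.8 in WT, 4.75 and 6.98 in Cpt2 L-/-, 4.20 and 6.15 in Ppara -/-, and 4.39 and 7.54 in the double knockout, so all 6 knockout livers were below both WT livers.

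Before centring, summed H3K27ac folds of Kupffer cell or macrophage, stellate, endothelial and lymphocyte markers were higher in Cpt2-null livers, and so were those of hepatocyte markers. The comparison is with livers of the same Ppara genotype with Cpt2. Cholangiocyte and neutrophil markers were mixed. The summed H3K27ac folds of the Kupffer cell or macrophage markers were 13.1 to 14.9 in WT, 27.3 to 41.7 in Cpt2 L-/-, 17.0 to 17.5 in Ppara -/- and 48.4 to 62.9 in the double knockout, with 2 of 5 markers called in the livers with Cpt2, where Vsig4, Cd5l and Adgre1 had no peak, and 3 to 5 in those without. Stellate cell markers summed to 14.8 to 15.6, 35.5 to 47.9, 14.9 to 15.4 and 31.1 to 36.1, endothelial markers to 68.0 to 73.3, 98.8 to 107.2, 70.8 to 82.1 and 105.8 to 113.9, and hepatocyte markers to 72.8 to 92.1, 92.4 to 106.4, 86.1 to 102.3 and 109.1 to 130.3 in the same order. Cholangiocyte markers, of which Sox9 alone had an interval, were lower without Cpt2 only in livers with Ppara. Their sums were 12.5 to 19.7 in WT, 0.0 in both Cpt2 L-/- livers, 5.8 to 7.2 in Ppara -/- and 6.7 to 9.6 in the double knockout. Lymphocyte markers summed to 10.2 to 16.5, 19.6 to 22.9, 14.9 to 19.4 and 24.0 to 24.3. Neutrophil markers were called at 1 of 5 in every library.

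In the centred fit few of these markers passed for Cpt2. Of the 2 stellate markers with a level Colec11 rose by 0.69 ± 0.16 (adjusted p = 0.0264) and Dcn had 0.39 ± 0.19 (adjusted p = 0.205). The 2 macrophage markers with a level had 0.56 ± 0.17 (Clec4f, adjusted p = 0.0631) and 0.44 ± 0.14 (Csf1r, adjusted p = 0.0697). Of 5 endothelial markers 0 passed, and Lyve1 had -0.35 ± 0.14 (adjusted p = 0.118), and 0 of 5 hepatocyte markers passed. The part of these cells in the Cpt2 result was not tested.

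The scale also mattered. Without centring the median of all genes moved by 0.266 toward higher values in the Cpt2-null livers, 2246 genes (19.9%) were called higher and 115 (1.02%) lower, and of the members Hp (0.51, adjusted p = 0.0419) and C9 (0.69, adjusted p = 0.0103) were called higher and none lower. With quantile normalization 649 genes (5.76%) were higher and 538 (4.78%) lower, and of the members C9 was higher (0.43, adjusted p = 0.0484) and Fgg, C3, Lbp and Mbl2 lower.

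With uncalled livers filled in, 15 of 35 members were lower and 0 higher without Cpt2 (background 8.05% and 11.5%): Crp, Saa1, Saa4, Fga, Fgb, Fgg, Lbp, C4b, C8b, C9, Cfb, Mbl2, Serpina3n, Socs3 and Il6ra. With WT liver 1 also left out these were 10 and 0 (background 7.56% and 11.1%). C3 and Stat3 were not among the 15. Filled in with all 8 livers, the coagulation factors had 6 lower and 0 higher of 16, with a median of -0.434 beside -0.358 for the members. The further acute phase genes had 8 lower and 2 higher of 23, and the further complement genes 6 lower and 4 higher of 18. Intervals with peaks in all 4 livers with Cpt2 and in none without it enter this fit and are lower in it by construction. Among the 15, Crp, Fga, Fgb, Fgg, C9, Mbl2, Serpina3n and Socs3 had such intervals. Other intervals in this fit also take the lowest fold of the library wherever a peak was missing. None of the 15 calls is therefore separate support for the counts of peaks below. In the main fit, calls for Cpt2 over all intervals also fell when 1 liver was left out, except without WT liver 1, where they rose. The count of 6 fell when any 1 liver was left out. It became 0 with the smallest peak width of each library as a covariate. That width was 217 to 223 bases in the Cpt2-null livers and 198 to 210 in those with Cpt2. Width and loss of Cpt2 therefore cannot be told apart in that fit.

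No member passed the test of whether loss of Cpt2 acted differently in livers with and without Ppara. The interaction was called for 0 of 31 members, with 8 of 11264 genes called (0.071%), and 2 members had an unadjusted p under 0.05 by limma. Fga had the largest value, -0.80 (adjusted p = 0.262), and Socs3 had 0.69 (adjusted p = 0.358).

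Whether an interval had a peak at all was also counted. Of the 270 member intervals, 196 and 162 were called in the WT livers, 110 and 110 in Cpt2 L-/-, 154 and 150 in Ppara -/-, and 104 and 123 in the double knockout. Each Cpt2-null liver had fewer than any liver with Cpt2. Peak numbers of whole libraries did not have this order. The Cpt2-null livers had 46445 to 48929 H3K27ac peaks and the livers with Cpt2 44454 to 46543. The stretch covered by peaks was nearer to this order, 42.0 to 44.9 Mb in the Cpt2-null livers and 44.8 to 47.8 Mb in those with Cpt2. The part of such library differences in the member counts was not tested. Both WT livers and neither Cpt2 L-/- liver had a peak at 47 intervals (17.4%, against 6.64% of all intervals), and the reverse held at 8 (2.96%, against 9.72%). Against the double knockout the counts were 47 (17.4%, against 8.0%) and 9 (3.33%, against 12.6%). Against Ppara -/- they were 19 (7.04%, against 5.41%) and 7 (2.59%, against 5.01%). Taking any pair of genotypes, 79 member intervals (29.3%, against 29.6%) had a peak in each liver of the first and in no liver of the second, a share close to that of all intervals.

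Peaks in all 4 livers with Cpt2 and in none without it were found at 11 intervals (4.07%, against 0.826%), at Crp, Stat3, Socs3, Serpina3n, C9, Masp1, Mbl2, Fgg, Fga and Fgb. Crp, C-reactive protein, had 3 of them, such as chr1:172703999-172705088 with 6.17 and 7.40 in WT and 4.67 and 5.41 in Ppara -/-. The one upstream of the Serpina3n start (chr12:104404905-104405276) had the highest folds, 13.5 and 7.50 in WT and 10.0 in both Ppara -/- livers. No member interval had a peak in all 4 Cpt2-null livers only (background 1.95%), in all 4 Ppara-null livers only (background 0.632%) or in all 4 Ppara-intact livers only (background 0.725%).

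In 5 intervals (1.85%, against 2.59%) all 6 knockout livers had a peak and neither WT liver did, at C3, C6, Il6ra and Stat3. The one beyond the 3′ end of C3 (chr17:57201044-57202589) had folds of 16.7 and 15.0 in Cpt2 L-/-, 9.78 and 9.56 in Ppara -/-, and 10.6 and 19.7 in the double knockout. WT liver 1 weighed on the counts: 36 member intervals (13.3%, against 5.04%) were called in it alone, and 15 (5.56%, against 5.35%) in WT liver 2 alone. At least 1 WT liver and no knockout had a peak at 68 (25.2%, against 13.7%), and these counts have no test.

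**Figure D5:**
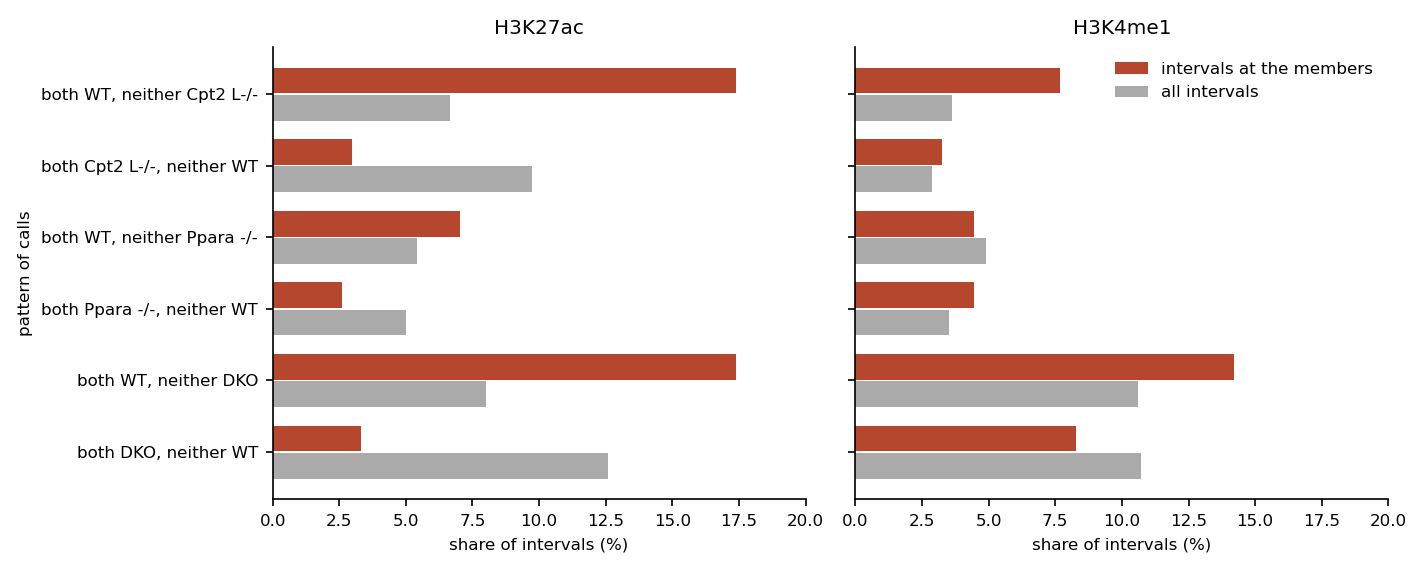
Share of intervals (percent) with a peak in each liver of 1 genotype but in no liver of the other, for WT against each knockout, at the member genes and over all intervals, for H3K27ac and H3K4me1. For H3K27ac, WT without Cpt2 L-/- reaches 17.4% of member intervals against 6.64% of all.

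No H3K4me1 difference at these genes passed the test, in a fit that called almost no gene at all. The 35 genes had 338 intervals, 109 of them in all 8 libraries (32.2%, against 19.0% of 103014), and 32 genes had a level, all but Apcs, C6 and Cfi. Of the 109 intervals, 12 lay nearest to a gene outside the 35. The fit called 0 members for Ppara (background 0.0122%, 1 of 8184 genes), 0 for Cpt2 (background 0.0%) and 0 for the interaction (background 0.0%), and 5, 3 and 0 members had an unadjusted p under 0.05 by limma. No member separated the 4 null livers from the 4 others, with Ppara (background 2.77% higher and 3.54% lower) or Cpt2 (background 1.38% and 1.39%).

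The members' H3K4me1 differences ran from -0.56 to 0.56 for Ppara and from -0.42 to 0.40 for Cpt2, so some were as large as those called in H3K27ac. Orm2 had the lowest p: its levels were -0.27 and -0.04 in WT, 0.10 and 0.12 in Cpt2 L-/-, 0.58 and -0.03 in Ppara -/-, and 0.76 and 0.86 in the double knockout (Ppara difference 0.56 ± 0.15, adjusted p = 0.225). Ppara -/- liver 2 lay among the Ppara-intact livers. C8a had 0.52 ± 0.15 (adjusted p = 0.265), Serpina3k 0.51 ± 0.20 (adjusted p = 0.368), Lbp -0.56 ± 0.18 (adjusted p = 0.292) and Saa4 -0.38 ± 0.16 (adjusted p = 0.396). Orm2 and C8a had values of the same sign in both marks. With all 8 livers 0 member intervals were called for Ppara (background 0.0461% higher and 0.0819% lower) or for Cpt2 (background 0.0%). Leaving out Cpt2 L-/- liver 1 brought calls for Ppara at member intervals, and leaving out Cpt2 L-/- liver 2 brought some for Cpt2. In each case the calls for that contrast over all intervals rose too. With all 8, 14 of the 109 member intervals had an unadjusted p under 0.05 by limma for Ppara and 13 for Cpt2.

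The same counts were made for H3K4me1. A peak in both WT livers and in no Cpt2 L-/- liver stood at 26 (7.69%, against 3.64% of all), and the reverse at 11 (3.25%, against 2.87%). For the double knockout these were 48 (14.2%, against 10.6%) and 28 (8.28%, against 10.7%), and for Ppara -/- 15 (4.44%, against 4.89%) and 15 (4.44%, against 3.5%). Over any pair of genotypes there were 93 (27.5%, against 26.2%).

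H3K9ac, another mark of active promoters, was listed as intervals without enrichment in 1 WT and 1 Cpt2 L-/- liver, so presence is all that can be given and nothing was tested. Of 232 member intervals 107 were in both livers (46.1%, against 55.2% of 46568), 108 in WT only (46.6%, against 20.8%) and 17 in Cpt2 L-/- only (7.33%, against 23.9%). The WT library is labelled replicate 1, the number that WT liver 1 of the other marks carries. Whether it is the same animal is not known here, so these counts are no separate support for those of H3K27ac. Saa1, Saa2 and Saa4 had 7, 5 and 5 intervals in WT, shared in part, and 0 in Cpt2 L-/-. C6, C9 and Mbl2 had 3 each and C8b 2, all in WT only. Fgb had 13 in WT, 3 of them in both livers, whereas the 4 intervals at Cfb were in both. The H3K9ac start intervals of C8b and C9 were among those in WT only.

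Other genes of the same pathways were taken from fixed lists. The shares of all genes called are, as above, 1.25% (higher) and 3.64% (lower) with loss of Ppara, and 4.15% and 5.42% with loss of Cpt2. Of 17 further complement genes tested, 0 were called for Ppara by limma (5 at an unadjusted p under 0.05). For Cpt2, 3 were higher and 3 lower, which became 8 and 2 without centring (all genes 19.9% and 1.02%). C1s1, a protease of the classical pathway, fell by 1.14 ± 0.23 (adjusted p = 0.0177), Clu, which binds the pore, by 0.76 ± 0.13 (adjusted p = 0.0103) and Cpn2 by 0.47 ± 0.11 (adjusted p = 0.0268). The genes called higher are known from macrophages: C1qa and C1qc, which share an interval, had 0.53 ± 0.12 (adjusted p = 0.0246) and C5ar1 0.47 ± 0.13 (adjusted p = 0.0411).

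Of 21 further acute phase genes, 2 were higher without Ppara (Orm3 and Serpina1d, 0.44 ± 0.11, adjusted p = 0.0477) and 2 lower (Serpina1a, -0.64 ± 0.14, adjusted p = 0.0286, and Lrg1, -0.59 ± 0.13, adjusted p = 0.0297). Without Cpt2, 5 were lower, namely Serpina1a, Serpina1d and Serpina1e (alpha-1-antitrypsins, near-identical copies), Agt and Trf, from -0.80 to -0.54, and 2 were higher, the metallothioneins Mt1 and Mt2, which share an interval (0.59 ± 0.13, adjusted p = 0.0195). Without centring 0 of the 21 were called for Ppara, and for Cpt2 2 were higher and 1 lower. Of 17 regulators, 2 were called for Cpt2 and 0 for Ppara (4 at an unadjusted p under 0.05): the lipopolysaccharide receptor Tlr4 rose by 0.84 ± 0.16 (adjusted p = 0.0127) and the hepatocyte factor Cebpa fell by 0.70 ± 0.14 (adjusted p = 0.0168). Without centring Tlr4 and Osmr were called, both higher. Coagulation factors, also secreted by the liver, had 0 higher and 4 lower of 16 without Cpt2 (F10, F11, Klkb1 and Kng1), or 1 and 1 without centring, with a median of -0.361 beside -0.177 for the acute phase and complement genes. For Ppara they had 0 called (4 at an unadjusted p under 0.05 by limma) and a median of -0.065, beside 4 called and 0.124.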

How the data were processed

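ChIP-seq libraries of H3K27ac and H3K4me1 (2 livers for each of 4 genotypes) and H3K9ac (1 WT, 1 Cpt2 L-/-) were used as the authors deposited them. Reads were aligned with BWA to mm10 and peaks called with MACS2 2.1.0, per the submitters' processing notes. Each narrowPeak file holds 1 library's peaks with a fold enrichment ratio, and −log10 p and −log10 q values (smallest −log10 p 7.02) that the authors deposited; consensus intervals merge the peaks of all libraries. How a control entered is not given in the sources used here, the pooled inputs were not analysed here, and read depth, and so any counting interval, is unknown. 1 H3K27ac library's peak names carry another build word than the rest.

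For each interval and library the highest fold of overlapping peaks (at least 1 base) was taken on the log2 scale, centred on the library's median over intervals called in all 8, and averaged per gene (midpoint within 10 kb of the mm10 RefSeq gene body). Differences came from limma 3.58.1 (eBayes with trend, R 4.3.3) over all genes or intervals, with 4 genotype means and Benjamini-Hochberg adjustment at 0.05; the fit was tested on simulated data. With Python 3.11.15, pandas 2.3.3 and numpy 2.4.6 the tables were made. Every value column was used.

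The members and gene lists were chosen with earlier results of these data known. Named are members past the threshold, 18 listed by name whatever their result, member intervals past the threshold (up to 12 per contrast and mark) and other pathway genes past it (up to 6 per contrast). Alternatives changed the centring, the intervals counted for a gene, the treatment of uncalled libraries, the −log10 q minimum, the overlap, a width covariate and the replicate block, and left out each liver in turn. Filling in uncalled libraries with WT liver 1 left out was added after seeing the data.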

Additional observations from a re-analysis of the deposited data

Results flagged for a closer look

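Orm1 is listed because its H3K27ac livers moved in opposite directions after loss of Cpt2 in the 2 Ppara backgrounds. With Ppara, both Cpt2 L-/- livers were below both WT livers, with a mean difference of -0.35 (log2), and without Ppara both double-knockout livers were above both Ppara -/- livers, with 0.08. The interaction was 0.43 and did not pass (limma adjusted p = 0.413), so a difference between the backgrounds was not shown.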

How the results depend on the processing

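The count of members called for Ppara in H3K27ac (4) went to 1 without centring and 2 with the strongest interval of a gene (C6 higher, Mbl1 lower), and ranged from 1 to 4 when 1 liver was left out. For Cpt2 (6) it went to 2 without centring (Hp and C9, both higher), 3 with the strongest interval, 15 with uncalled libraries filled in at their lowest fold (all lower), 10 filled in with WT liver 1 left out (chosen after seeing the data) and 0 with the smallest peak width as a covariate, under which 0 genes were called at all, and ranged from 0 to 5 with 1 liver left out. The 13 of 69 member intervals called in H3K27ac became 48 of 131 filled in and 3 of 69 with the width covariate. Over all intervals, 896 were higher and 1349 lower of 18281 for Cpt2. Filled in these were 4158 and 3011 of 33572, and with the width covariate 0 and 0. The H3K27ac widths of the Cpt2-null livers were all above those of the livers with Cpt2, so this covariate cannot be told apart from loss of Cpt2. For Ppara they went from 584 and 758 to 2353 and 1771 filled in, and to 288 and 425 with the width covariate. With 1 liver left out the member intervals called also changed, in H3K27ac and in H3K4me1, where 0 were called with all 8. Member intervals with a peak in each liver of 1 genotype but in no liver of another went from 79 to 49 within 2 kb in H3K27ac, and H3K9ac intervals in Cpt2 L-/- only from 17 to 5. Reversed values were the C9 Cpt2 difference filled in (-0.98, and -0.89 with WT liver 1 left out) and the Mbl2 interval under the width covariate (0.29). The causes were not tested, apart from the smaller samples or tables that an alternative makes by its own construction. For single genes in H3K27ac, 376 alternative values stayed on their side of the threshold, 41 lost a call and 17 gained one, and with 1 liver left out these were 264, 52 and 4. In H3K4me1 all 478 and 352 stayed. For called intervals 120 stayed and 29 lost the call. Differences past no threshold changed sign in 41 of 756 H3K27ac and 97 of 830 H3K4me1 values. Requiring an overlap of 50% changed no value. Replicate numbers do not pair the livers (correlation of deviations -0.0649 to 0.172 in H3K27ac and -0.489 to 0.101 in H3K4me1); with the replicate block the members called stayed at 4 and 6 and the member intervals called were 17. Unknown read depth limits all comparisons of which intervals were called.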
